A study of Homo sapiens with 42 samples.

Results

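In OCI-Ly3 lymphoma cells, 38 rows of the expression tables were higher with both short hairpin RNAs against MALT1 than with a non-targeting hairpin, and they were at most slightly higher in TMD8 cells. They were 38 of 23250 rows in each table, and of 12303 rows with a level of at least 1 CPM (the standard unit that scales read counts to the same library total) in at least 3 of the 18 knockdown libraries. The rows were chosen by their change in those libraries, which is the group median of log2(CPM + 1) minus the median of the non-targeting libraries of the same line. A row was kept when its change was at least 0.8 with each hairpin in OCI-Ly3 and below 0.3 with each hairpin in TMD8. The values of the knockdown libraries are therefore given as a description with no test, and tests are given for the compound experiment, which the selection did not use. The tables number their rows and give no gene names, so the 38 members cannot be called by gene or grouped by function here, the level of MALT1 in the knockdown libraries was not analysed here, and neither line could be checked against B cell markers.

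The study compared MALT1 inhibition and MALT1 knockdown by RNA sequencing in OCI-Ly3 and TMD8, both human cell lines of the activated B cell-like subtype of diffuse large B-cell lymphoma. In the knockdown experiment, each line was infected with lentivirus carrying MALT1 hairpin 1, MALT1 hairpin 2 or the non-targeting hairpin, which makes 6 groups of 3 libraries. In the compound experiment, each line was treated with 100 nM compound 3, the study's MALT1 inhibitor, or with the solvent DMSO, for 8 h or 24 h, which makes 8 groups of 3 libraries. The labels give no time after infection, and they do not say whether replicates were separate cultures, so that the p-values reflect no more than how these libraries varied, which may be technical.

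MALT1 is a paracaspase, a protease that also serves as a scaffold. It helps to carry B-cell receptor signals to NF-kB, and its protease cuts several proteins that restrain this signal or destabilise messenger RNAs. Lymphomas of the activated B cell-like subtype are known to keep this pathway switched on. A hairpin RNA is meant to lower the MALT1 protein and thereby both activities, whereas an inhibitor of the protease leaves the scaffold in place. Rows that move with both hairpins are the usual starting point for reading a knockdown, since an unintended target of one hairpin need not be a target of the other.

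The rows of the tables held between 15815863 and 19392164 reads per library in the knockdown experiment, and between 23277423 and 31584108 reads in the compound experiment. These reads were 73.6 to 79.3% of each knockdown library's total and 71.9 to 79.6% of each compound library's total. In OCI-Ly3, the share was 74.1% ± 0.60 with hairpin 2 and 78.6% ± 0.63 with the non-targeting hairpin (SD, n = 3 each), and its part in the changes was not tested. One library stood apart for these rows: replicate 1 of the OCI-Ly3 non-targeting group was the lowest of the 3 controls in 29 of the 38 members, against 6341 of the 12303 rows. Its log2(CPM + 1) was a median of 0.62 below the mean of the other controls over the members, and more than 1 below it in 9 of them. The same control was more than 1 below in 888 of the 12303 rows.

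Each limit of the selection removed a different number of rows. In OCI-Ly3, 98 rows reached the limit with hairpin 1, 744 reached it with hairpin 2, and 81 reached it with both, which is 0.658% of the 12303. The TMD8 limit then kept out 43 of the 81 and left the 38 members, of which 13 lay between 0.8 and 0.9 with the hairpin that moved them less. The member nearest to the OCI-Ly3 limit had a change of 0.802, and the nearest row outside it 0.799. The member nearest to the TMD8 limit had 0.296, and the nearest row outside it 0.309. A further 22 rows that met the TMD8 limit lay between 0.7 and 0.8 in OCI-Ly3.

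With hairpin 1 in OCI-Ly3, the members' changes ran from 0.80 to 1.39 with a median of 0.96, beside a median of 0 over the 12303 rows. With hairpin 2 they ran from 0.95 to 3.45 with a median of 1.44, beside a median of -0.0043. Hairpin 2 gave the greater change in 37 of the 38 members, by a median of 0.49. In the remaining member the changes with both hairpins differed by less than 0.01. Over the 12303 rows hairpin 2 gave the greater change in 5991, with a median difference of -0.0030. Changes with hairpin 2 also spread wider over these rows, with quartiles of -0.31 and 0.30, against -0.13 and 0.14 with hairpin 1. In the 43 rows kept out by the TMD8 limit, the median change was 1.12 with hairpin 1 and 2.26 with hairpin 2. The selection used both changes, so nothing is read from the 37 of 38 members. A change of at least 2 was reached by 9 members with hairpin 2 and by no member with hairpin 1. Both hairpins were set against the same 3 non-targeting libraries, so their changes are not independent of each other. In bulk RNA of a cell line, a change in the number of cells that express a row and a change in its RNA per cell cannot be told apart.

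**Figure D1:**
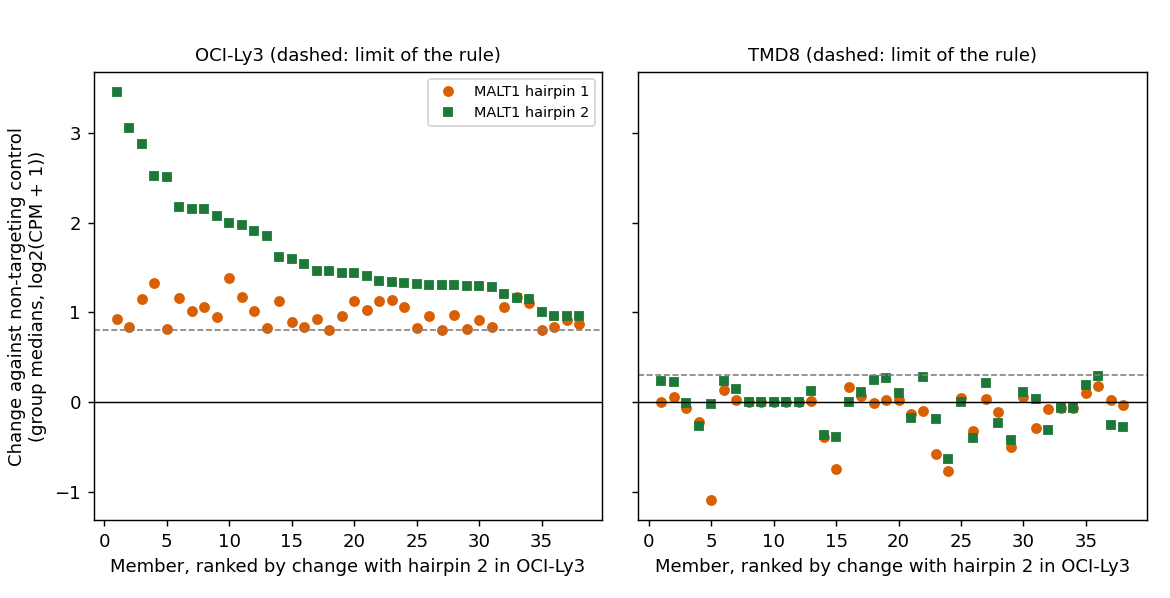
Change of each of the 38 members with hairpin 1 (circles) and hairpin 2 (squares) against the non-targeting hairpin, as group medians on the log2(CPM + 1) scale, in OCI-Ly3 (left) and TMD8 (right). Dashed lines mark the limits that chose the members, 0.8 in OCI-Ly3 and 0.3 in TMD8; in OCI-Ly3 the squares lie above the circles in 37 of 38 members, and in TMD8 both kinds of point spread to both sides of 0.

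In OCI-Ly3, every hairpin 1 library lay above every non-targeting library in 34 of the 38 members, where 17.1% of all 12303 rows did so. Every hairpin 2 library lay above them in 37 members (25.4% of all rows), and all libraries of both hairpins did so in 34 members (11.0% of all rows). The selection used these libraries, so nothing is read from these counts. The spread between replicates was widest among the controls. The median SD of log2(CPM + 1) over members was 0.13 with hairpin 1 and 0.17 with hairpin 2, against 0.45 with the non-targeting hairpin. Over all rows these medians were 0.076 with hairpin 1, 0.12 with hairpin 2 and 0.20 with the non-targeting hairpin.

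Without control replicate 1, the median change over the members was 0.90 with hairpin 1 and 1.45 with hairpin 2. Of the 38 members, 28 reached 0.8 with hairpin 1 and 37 with hairpin 2. The same rule applied without this library gave 28 rows, all of them members. Without control replicate 2 it gave 275 rows, 31 of them members, and without control replicate 3 it gave 269 rows, 33 of them members. With group means in place of medians it gave 127 rows, 31 of them members.

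In TMD8, the members' changes ran from -1.09 to 0.18 with hairpin 1 and from -0.64 to 0.30 with hairpin 2, with a median of 0 for each. The selection bounded these values above and not below. Within 0.3 of 0 lay 31 members with hairpin 1 and 32 with hairpin 2, and 30 members did so with both. Every hairpin 1 library lay above every TMD8 control library in 2 members (25.7% of all rows) and below in 11 (17.3% of all rows). For hairpin 2 the counts were 6 above (20.7% of all rows) and 6 below (15.7% of all rows). Both hairpins lay below the controls in 5 members (8.04% of all rows). In 4 members all hairpin libraries were above the controls in OCI-Ly3 and below them in TMD8, which 0.862% of all rows showed; the selection used these libraries, and nothing is read from the count.

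The members were mostly rows of low expression. The median over members of the group median level in OCI-Ly3 was 8.50 CPM with hairpin 1, 14.03 CPM with hairpin 2 and 3.05 CPM with the non-targeting hairpin, where the median over all rows was between 23.2 and 23.5 CPM in those groups. By library, the median over members was 8.32, 8.52 and 8.24 CPM with hairpin 1, 13.9, 14.2 and 12.2 CPM with hairpin 2, and 2.18, 3.05 and 3.86 CPM with the non-targeting hairpin. The hairpin libraries of each group lay close together, and the non-targeting libraries lay below all of them. In TMD8 the same medians were 2.85, 2.82 and 2.85 CPM with hairpin 1, 3.31, 3.36 and 3.45 CPM with hairpin 2, and 3.71, 3.29 and 4.05 CPM with the non-targeting hairpin.

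The non-targeting group median in OCI-Ly3 was below 1 CPM in 10 members, between 1 and 10 CPM in 16, and at 10 CPM or more in 12. In TMD8 the counts were 13, 14 and 11. Of the 13 members below 1 CPM in the TMD8 controls, 6 were also below 1 CPM in the OCI-Ly3 controls, and 7 were between 1 and 10 CPM there. For members near 0 CPM in TMD8, a change near 0 in that line could not show a fall. By TMD8 control level, the median change with hairpin 2 in OCI-Ly3 was 1.91 below 1 CPM, 1.57 between 1 and 10 CPM, and 1.33 at 10 CPM or more. With hairpin 1 it was 1.03, 0.90 and 0.95 in the same order. The selection used these changes. The 6 members below 1 CPM in both controls also needed the OCI-Ly3 hairpin libraries to meet the CPM minimum, so nothing is read from this order. On the log2(CPM + 1) scale the change of rows below about 1 CPM is understated.

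**Figure D2:**
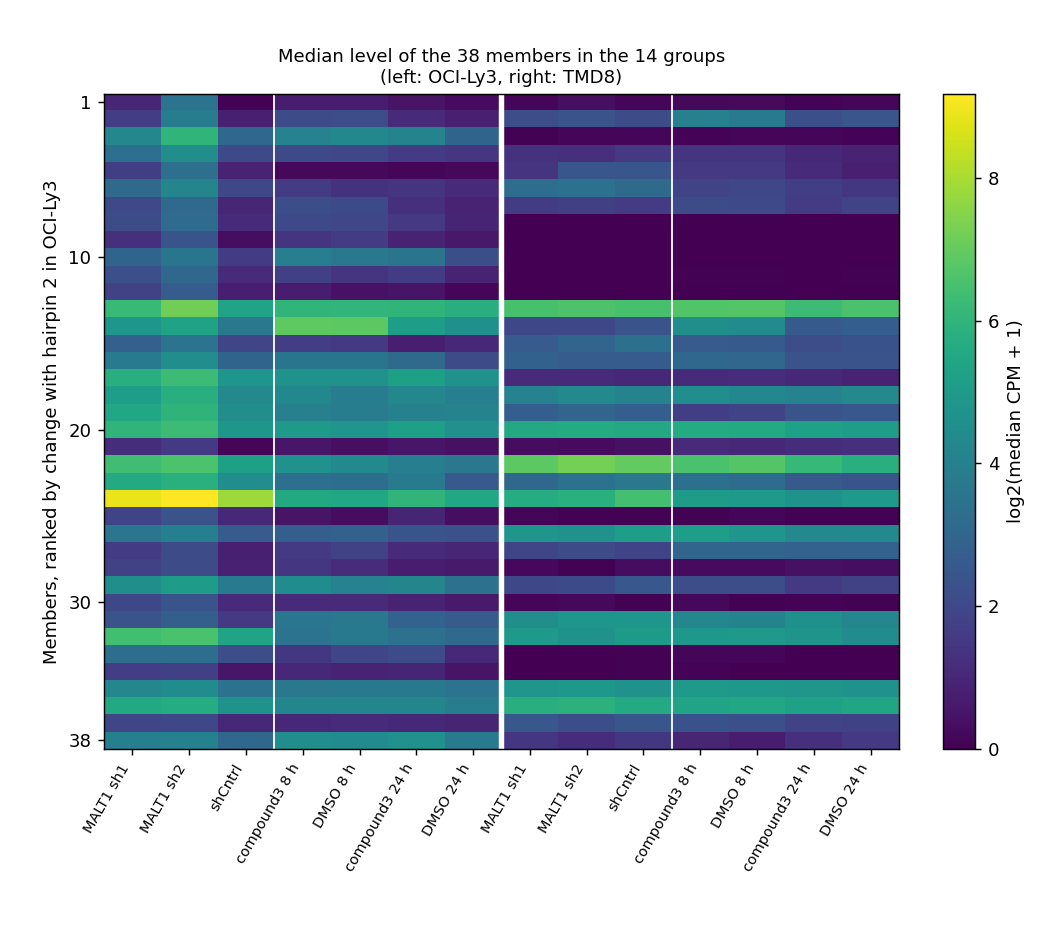
Level of each of the 38 members, as log2 of the group median CPM + 1, in the 14 groups (OCI-Ly3 left of the thick line, TMD8 right; the knockdown experiment left of each thin line). In OCI-Ly3 the hairpin 2 column is the highest in 33 of 38 members, which the selection favours, and 13 members stay below 1 CPM in the TMD8 non-targeting group.

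The member with the highest control level in OCI-Ly3 also had the lowest change with hairpin 2 in TMD8. In OCI-Ly3 it had 473, 479 and 546 CPM with hairpin 1 and 585, 579 and 526 CPM with hairpin 2, against 71.5, 229 and 273 CPM with the non-targeting hairpin. Every hairpin library was above every control library, and the lowest control was replicate 1. In TMD8 it had 55.3, 50.4 and 48.0 CPM with hairpin 1 and 54.3, 57.3 and 55.3 CPM with hairpin 2, against 80.9, 86.5 and 87.2 CPM with the non-targeting hairpin. There, every hairpin library was below every control library. Its changes were 1.06 and 1.33 in OCI-Ly3 and -0.77 and -0.64 in TMD8, with hairpin 1 and hairpin 2 in that order. In the compound experiment it had 61.4, 72.3 and 62.9 CPM with compound 3 after 24 h in OCI-Ly3, against 43.8, 51.0 and 40.6 CPM with DMSO. The compound libraries were above all DMSO libraries, but the limma adjusted p was 0.179.

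The member with the lowest control level had the greatest change with hairpin 2. It had 0.859, 1.33 and 0.975 CPM with hairpin 1 and 10.4, 14.2 and 10.4 CPM with hairpin 2, against 0.0427, 0.124 and 0 CPM with the non-targeting hairpin. The 3 control values stand for 1, 3 and 0 reads. Its change was 0.92 with hairpin 1 and 3.45 with hairpin 2, and in TMD8 no library of any group was above 0.380 CPM.

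The member with the lowest change in TMD8 with hairpin 1 was higher in the OCI-Ly3 hairpin libraries than in any OCI-Ly3 library of the compound experiment. It had 2.94, 1.89 and 2.29 CPM with hairpin 1 and 10.5, 7.38 and 9.60 CPM with hairpin 2, against 0.597, 0.865 and 1.37 CPM with the non-targeting hairpin. In TMD8 it had 1.57, 1.86 and 1.60 CPM with hairpin 1 and 4.43, 5.85 and 4.32 CPM with hairpin 2, against 4.24, 5.21 and 4.52 CPM with the non-targeting hairpin. Hairpin 1 libraries were thus below all TMD8 controls, whereas hairpin 2 libraries overlapped them. In DMSO-treated OCI-Ly3 it did not exceed 0.377 CPM.

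The members nearest to the limits had middling levels. At the OCI-Ly3 limit, 1 member had 17.9, 19.3 and 17.6 CPM with hairpin 1 and 20.8, 21.5 and 19.9 CPM with hairpin 2, against 5.46, 9.84 and 10.3 CPM with the non-targeting hairpin. At the TMD8 limit, 1 member had 48.6, 46.3 and 37.8 CPM with hairpin 1 and 63.5, 50.6 and 40.9 CPM with hairpin 2 in OCI-Ly3, against 4.01, 25.4 and 25.4 CPM with the non-targeting hairpin. In TMD8 the same member had 48.9, 56.6 and 54.1 CPM with hairpin 1 and 73.7, 35.5 and 58.6 CPM with hairpin 2, against 39.8, 47.5 and 59.1 CPM with the non-targeting hairpin. The TMD8 groups overlapped in that member, and in OCI-Ly3 control replicate 1 lay far below the other controls.

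The compound experiment asked whether the same rows moved when MALT1 was inhibited for 8 h or 24 h. Of the 38 members, 36 had at least 1 CPM in at least 3 of its 24 libraries and were tested among 12589 rows with limma, and 2 were not. A row is called higher or lower here where its adjusted p (Benjamini-Hochberg over the 12589 rows) was below 0.05. All fold changes are differences of log2(CPM + 1) and are too small for rows of low level. Passing this filter did not depend on the knockdown libraries.

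After 24 h in OCI-Ly3, 6 of the 36 members were called higher with compound 3 than with DMSO and 0 were called lower, where 0.651% of all rows tested were called higher. The median log2 fold change over members was 0.40, beside 0.0010 over all rows, and 33 of 36 were above 0, beside 50.2% of all rows. At an unadjusted p below 0.05 there were 14 members, beside 8.14% of all rows. Every compound 3 library was above every DMSO library in 18 of 36 members, where 9.17% of all rows showed this. Compound 3 was above DMSO in all 3 same-numbered pairs in 29 of 36 members, beside 21.2% of all rows. These libraries are separate from those that chose the members.

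The same-numbered OCI-Ly3 libraries at 24 h were taken as pairs from their correlation, since the labels give no pairing. With the replicate number as a block, limma called 19 of 36 members higher, where 5.39% of all rows were called. That fit covered all 24 libraries, so it also blocked the TMD8 24 h numbers, which were not taken as pairs. The unblocked count rested on single libraries, each left out with its same-numbered partner kept. Without compound 3 replicate 2 it was 0, without DMSO replicate 1 it was 1, without DMSO replicate 3 it was 2, and without compound 3 replicate 1 or replicate 3 it was 3 each. With edgeR on the recovered reads it was 2 and in a fit of the 12 OCI-Ly3 libraries alone it was 1. Calls over all rows moved too: 82 were higher in the main fit, 48 with edgeR, 27 in the fit of OCI-Ly3 alone and 15 without compound 3 replicate 2. The members' median fold change stayed between 0.29 and 0.59 over the 14 alternatives.

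**Figure D3:**
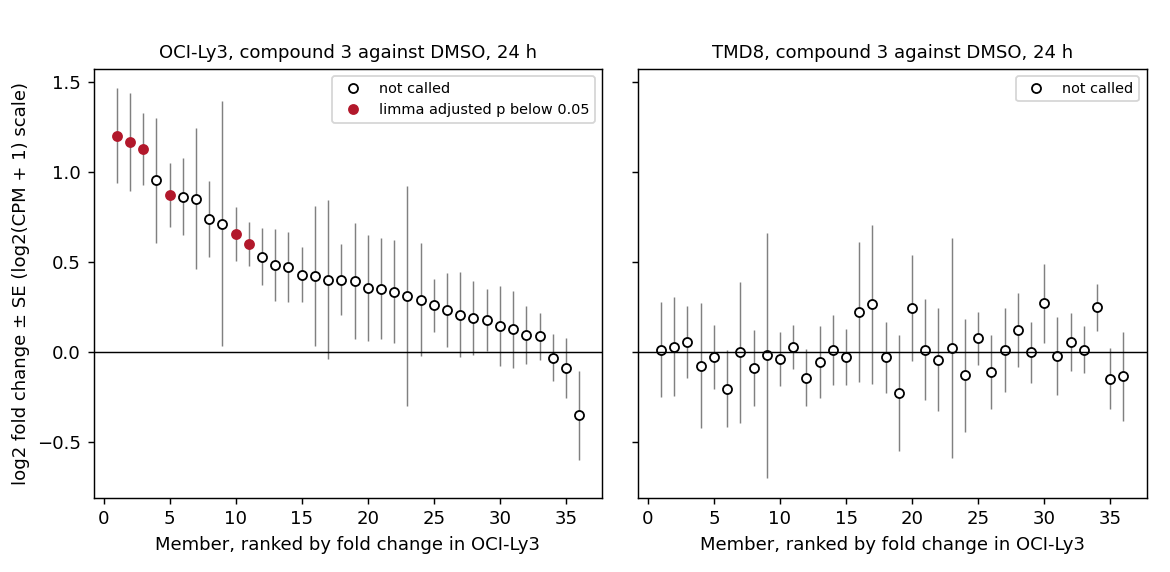
Log2 fold change (points) and standard error (bars) with compound 3 against DMSO after 24 h for the 36 members tested, in OCI-Ly3 (left) and TMD8 (right), in the same order in both panels. Filled points are the 6 members called by limma at an adjusted p below 0.05, all in OCI-Ly3, where 33 of 36 points lie above 0; in TMD8 17 of 36 do.

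The 6 called members had log2 fold changes of 0.60 to 1.20 with standard errors of 0.12 to 0.27 and limma adjusted p of 0.00749 to 0.0468. In each of them every compound 3 library was above every DMSO library. In 4 of the 6 the TMD8 non-targeting level was below 1 CPM. The spread behind each standard error was estimated over all 24 libraries, those of TMD8 included. A row near 0 CPM in TMD8 varies little there, so its standard error can be too small for OCI-Ly3. By TMD8 control level, the median fold change in OCI-Ly3 was 0.48 in 11 members below 1 CPM, 0.33 in 14 members between 1 and 10 CPM, and 0.40 in 11 members at 10 CPM or more.

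Row 984 had the largest fold change of the 36 and also the largest change with hairpin 1. After 24 h in OCI-Ly3 it had 10.6, 15.3 and 8.09 CPM with compound 3, against 3.60, 6.51 and 3.08 CPM with DMSO, with no overlap. Its log2 fold change was 1.20 ± 0.26 (SE, n = 3 each; limma adjusted p = 0.0316). The call was kept in 7 of 14 alternatives, and with the replicate block the adjusted p was 1.6e-06. In the knockdown experiment it had 4.99, 6.95 and 6.83 CPM with hairpin 1 and 11.5, 10.9 and 10.9 CPM with hairpin 2, against 0.469, 2.88 and 1.995 CPM with the non-targeting hairpin. Row 984 was nearly silent in TMD8, where no library of any group exceeded 0.0861 CPM. Its standard error and adjusted p rest in part on those libraries.

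Row 4747 was next. After 24 h in OCI-Ly3 it had 15.2, 28.1 and 16.3 CPM with compound 3, against 6.84, 12.2 and 5.96 CPM with DMSO, again with no overlap. Its log2 fold change was 1.17 ± 0.27 (SE, n = 3 each; limma adjusted p = 0.0468). The call was kept in 3 of 14 alternatives, and with the replicate block the adjusted p was 2.23e-05. With hairpin 1 row 4747 had 13.4, 18.1 and 20.5 CPM and with hairpin 2 it had 50.8, 62.5 and 65.1 CPM, against 3.20, 8.57 and 7.63 CPM with the non-targeting hairpin. In TMD8 it did not exceed 0.248 CPM in any library, and its standard error and adjusted p also rest in part on those libraries.

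The other 4 called members differed widely in level. In 1 of them, OCI-Ly3 libraries had 10.4, 13.5 and 12.3 CPM with compound 3, against 4.87, 4.67 and 5.36 CPM with DMSO. The highest had 33.8, 43.1 and 35.1 CPM with compound 3, against 23.8, 26.2 and 22.6 CPM with DMSO. The lowest had 1.99, 2.49 and 2.03 CPM with compound 3, against 0.811, 0.850 and 1.41 CPM with DMSO. The remaining one had 1.64, 3.25 and 3.57 CPM with compound 3, against 0.811, 1.30 and 1.01 CPM with DMSO. All 4 showed no overlap between the groups.

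At the other end, rows 20904 and 16743 had the lowest fold changes of the 36. Row 20904 had 0.689, 0.709 and 0.261 CPM with compound 3 after 24 h in OCI-Ly3, against 1.04, 0.651 and 1.24 CPM with DMSO. Its log2 fold change was -0.35 ± 0.25 (SE, n = 3 each; limma adjusted p = 0.832). In the knockdown libraries of that line it had 5.11, 5.96 and 6.34 CPM with hairpin 1 and 10.001, 10.4 and 11.6 CPM with hairpin 2, against 1.37, 2.76 and 3.59 CPM with the non-targeting hairpin. All hairpin libraries were therefore above all controls, while the compound and DMSO libraries overlapped. Over the 14 alternatives the fold change of this row with compound 3 at 24 h ran from -0.82, with edgeR, to -0.21. It was called in 0 of them.

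Row 16743 had 15.2, 15.5 and 15.5 CPM with compound 3 after 24 h in OCI-Ly3, against 15.2, 16.1 and 17.9 CPM with DMSO. Its log2 fold change was -0.09 ± 0.17 (SE, n = 3 each; limma adjusted p = 0.990). With hairpin 1 it had 44.1, 37.7 and 48.0 CPM and with hairpin 2 it had 58.9, 62.1 and 67.9 CPM, against 29.1, 20.5 and 22.2 CPM with the non-targeting hairpin. Unlike most members, row 16743 was highest in replicate 1 among the controls.

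**Figure D4:**
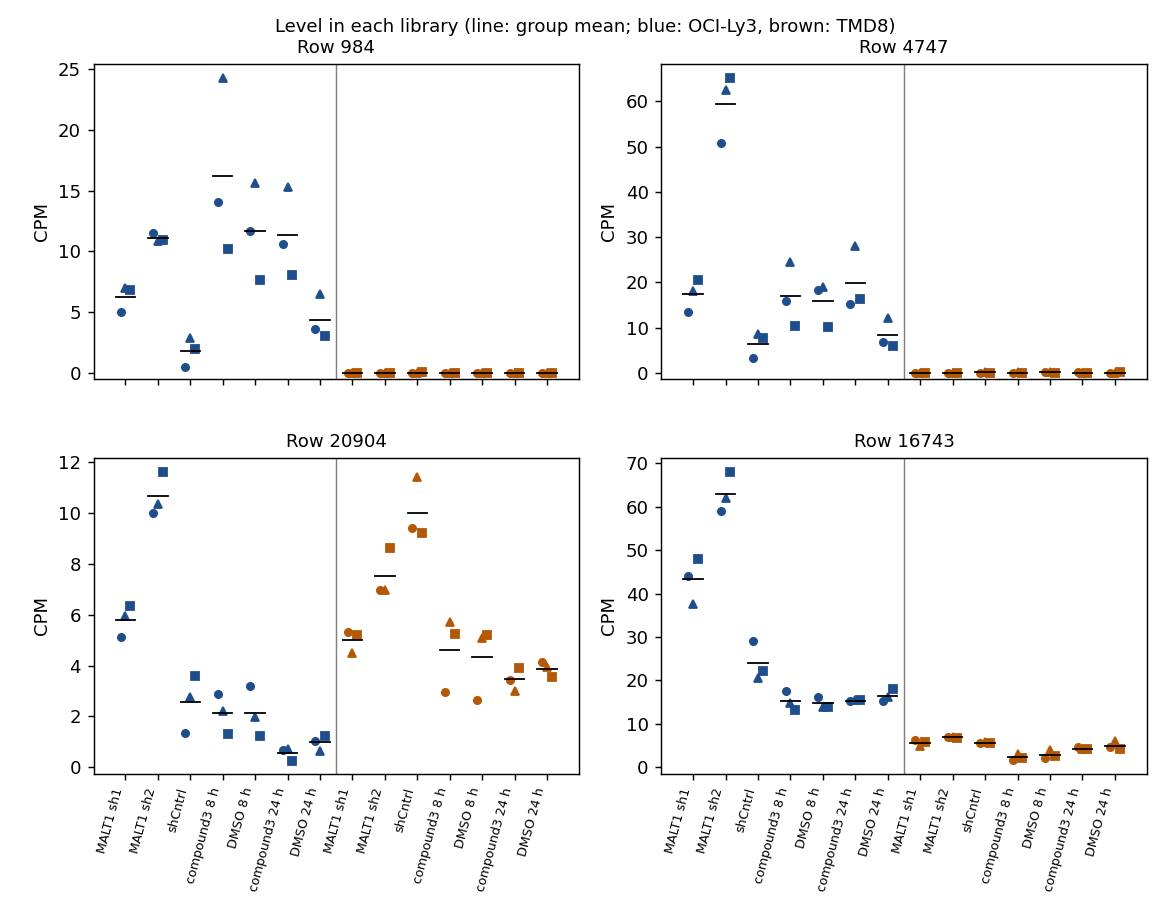
CPM of rows 984, 4747, 20904 and 16743 in all 42 libraries, by group (circles, triangles and squares are replicates 1, 2 and 3; lines are group means; OCI-Ly3 left and TMD8 right of the grey line). Rows 984 and 4747 are near 0 CPM in TMD8 and higher with compound 3 than with DMSO at 24 h in OCI-Ly3. In rows 20904 and 16743 the difference in CPM between compound 3 and DMSO at 24 h in OCI-Ly3 is small beside the level of the hairpin libraries.

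Across the 36 members, the fold change with compound 3 at 24 h in OCI-Ly3 had a Pearson correlation of 0.42 and a Spearman correlation of 0.39 with the change with hairpin 1. With hairpin 2 the values were 0.10 and 0.098. The points share their libraries within each experiment, the members were chosen within a narrow range of change with hairpin 1, and these values are a description only.

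After 8 h in OCI-Ly3, 0 of 36 members were called with compound 3, where 0.0397% of all rows were called. No member had an unadjusted p below 0.05. The count was also 0 with edgeR and with DESeq2. The median fold change over members was 0.07, beside 0.01 over all rows. It was above 0 in 30 of 36 members, beside 53.6% of all rows. This direction rested on single libraries: without DMSO replicate 3 the median was -0.03 with 14 of 36 above 0, and leaving out DMSO replicate 1 gave 0.21 and leaving out compound 3 replicate 3 gave 0.22. The difference between the compound effect at 24 h and at 8 h was tested as an interaction. It was called in 0 members by limma, edgeR and DESeq2. Limma and edgeR called 0.0% of all rows, and DESeq2 called 20 higher and 1 lower of 12589. With limma, 7 members had an unadjusted p below 0.05, beside 2.67% of all rows. Its median was 0.35 over members, beside -0.02 over all rows, and it was above 0 in 31 of 36 members. The median was 0.17 without DMSO 8 h replicate 1, and without compound 3 8 h replicate 3 it was 0.24 with 22 of 35 above 0. With the replicate block it was called higher in 5 members, where 1.19% of all rows were called.

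In TMD8, 0 of 36 members were called with compound 3 after 24 h and 0 after 8 h, where 0.0% of all rows were called at each time. At neither time did a member have an unadjusted limma p below 0.05. The counts were also 0 with edgeR and with DESeq2. The median fold change was -0.00056 at 24 h (-0.04 to 0.02 over the alternatives) and -0.00045 at 8 h (-0.03 to 0.03), and it was above 0 in 17 and 16 of 36 members at those times. The difference in the compound effect at 24 h between OCI-Ly3 and TMD8 was called in 0 members, where 0.0238% of all rows were called, and 10 members had an unadjusted p below 0.05, beside 3.11% of all rows. With edgeR and with DESeq2 it was called in 0 members. Its median was 0.40 over members, beside 0.02 over all rows, and it was above 0 in 33 of 36. For row 984 the difference was 1.19 ± 0.37 (SE; limma adjusted p = 0.837). With the replicate block the difference was called higher in 9 members, where 178 of all 12589 rows were called higher. The replicate numbers of the TMD8 libraries at 24 h were not taken as pairs, however.

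The members' levels in DMSO differed between the culture times in OCI-Ly3. After 24 h, 0 of 36 members were called higher and 5 lower than after 8 h, where 2.26% of all rows were called lower. The 5 had log2 fold changes of -1.23 to -0.54. The median over members was -0.55, beside -0.01 over all rows, and 3 of 36 were above 0. This fall was not particular to the members: the 43 rows kept out by the TMD8 limit had a median of -0.56, with 7 called lower. With edgeR or DESeq2 the median was -0.86. These libraries were taken as pairs in the same way, and with the block 21 members were called lower, where 7.29% of all rows were called. The unblocked count was 0 without replicate 1 of either time, 2 without replicate 2 or replicate 3 of the 24 h group, and 12 without replicate 3 of the 8 h group. It was 3 with edgeR, 10 with DESeq2 and 0 in the fit of OCI-Ly3 alone. Calls over all rows moved too: 285 were lower in the main fit, 272 with edgeR, 555 with DESeq2 and 121 in the fit of OCI-Ly3 alone. Without replicate 3 of the 8 h group, 455 rows were called lower.

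By library, the median over members in OCI-Ly3 was 2.75, 2.58 and 2.32 CPM after 24 h of DMSO and 8.26, 6.18 and 3.61 CPM after 8 h of DMSO. With compound 3 it was 3.09, 6.11 and 3.74 CPM after 24 h and 8.60, 5.74 and 3.58 CPM after 8 h. The 24 h DMSO libraries were the lowest of these 4 groups, and each 24 h compound 3 library lay above all of them. The compound comparison at 24 h and the time comparison share the 24 h DMSO libraries, so a low value there enters both. Row 984 was called in both comparisons. It had 3.60, 6.51 and 3.08 CPM after 24 h of DMSO, against 11.7, 15.6 and 7.61 CPM after 8 h (log2 fold change -1.23 ± 0.26, SE; limma adjusted p = 0.0147).

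**Figure D5:**
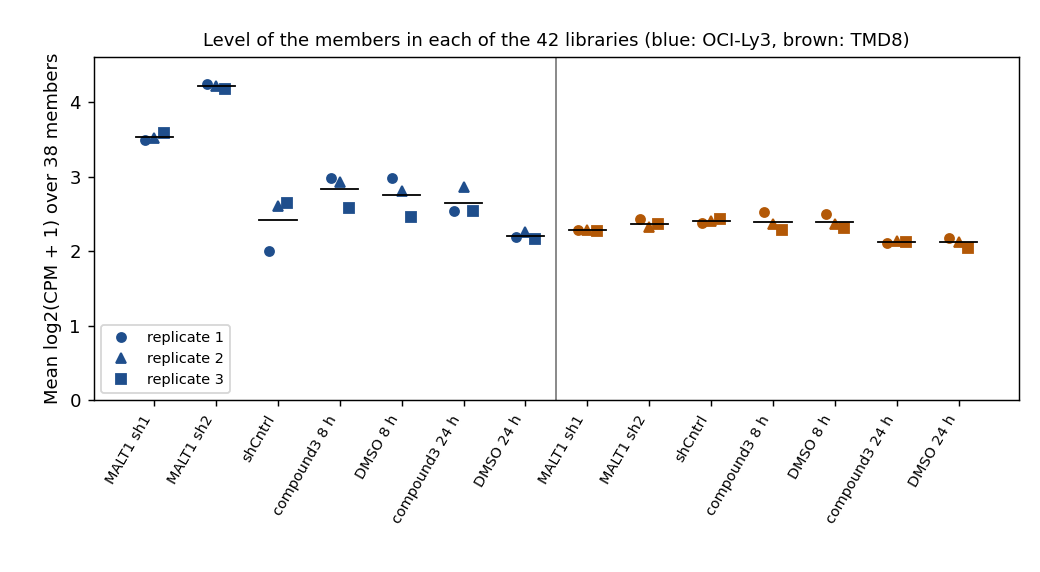
Mean of log2(CPM + 1) over the 38 members in each of the 42 libraries, by group (blue OCI-Ly3, brown TMD8; symbols are replicates, lines are group means). The hairpin libraries of OCI-Ly3 are the highest, control replicate 1 is the lowest OCI-Ly3 library, and the 24 h compound 3 libraries lie above the 24 h DMSO libraries in OCI-Ly3 and overlap them in TMD8.

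In TMD8, 1 member was called higher after 24 h of DMSO (3.45% of all rows) and 5 were called lower (3.71% of all rows). The median over members was -0.09, beside 0.02 over all rows. It was -0.20 without 24 h replicate 1, -0.17 without 8 h replicate 2 or replicate 3, -0.27 with pseudocount 0.25, -0.32 in the fit of TMD8 alone, -0.49 with edgeR and -0.48 with DESeq2. The member called higher was row 16743, with 4.58, 6.10 and 4.16 CPM after 24 h, against 2.20, 3.90 and 2.66 CPM after 8 h (log2 fold change 0.61 ± 0.17, SE; limma adjusted p = 0.0332). Leaving out 1 DMSO library, the higher calls were 0, 0 and 1 without 24 h replicate 1, 2 and 3, and 0, 2 and 0 without 8 h replicate 1, 2 and 3. The lower calls were 2, 1 and 1 without the 24 h replicates and 1, 4 and 3 without the 8 h replicates, in the same order.

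OCI-Ly3 and TMD8 differed in DMSO for most members and in both directions. Of the 36, 17 were called higher in OCI-Ly3 (37.5% of all rows) and 16 lower (32.1% of all rows), and the median difference was 0.14, beside 0.06 over all rows. The sign of this median rested on 1 library, being -0.05 without OCI-Ly3 8 h replicate 1, and it was 0.29 without OCI-Ly3 8 h replicate 3. It was 0.09 without OCI-Ly3 24 h replicate 1, 0.07 without OCI-Ly3 8 h replicate 2 and 0.09 without TMD8 8 h replicate 2. The called differences ran from 0.37 to 3.68 among the higher and from -2.34 to -0.58 among the lower. In TMD8, 23 of the 38 members had a median of 1 CPM or more after 24 h of DMSO.

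The member with the largest difference had 21.2, 30.7 and 25.3 CPM in OCI-Ly3 and 0.690, 1.62 and 0.886 CPM in TMD8 after 24 h of DMSO. Its difference, averaged over both times, was 3.68 ± 0.14 (SE; limma adjusted p = 6.12e-16). In OCI-Ly3 it had 58.4, 52.9 and 52.9 CPM with hairpin 1 and 75.6, 81.7 and 77.0 CPM with hairpin 2, against 21.3, 27.3 and 28.9 CPM with the non-targeting hairpin. With compound 3 at 24 h it had 34.0, 37.4 and 36.0 CPM, above every DMSO library, but the limma adjusted p was 0.450.

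The member with the lowest difference had 3.88, 4.16 and 2.97 CPM in OCI-Ly3 and 28.3, 18.6 and 19.6 CPM in TMD8 after 24 h of DMSO. Its difference was -2.34 ± 0.22 (SE; limma adjusted p = 5.49e-09). In OCI-Ly3 it had 11.1, 10.3 and 12.6 CPM with hairpin 1 and 14.5, 14.7 and 12.7 CPM with hairpin 2, against 10.6, 3.50 and 5.23 CPM with the non-targeting hairpin. Hairpin 1 libraries overlapped the controls here, since control replicate 1 was high. After 8 h of DMSO in TMD8 its first replicate had 56.1 CPM, against 25.02 and 26.5 CPM in the others.

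Set side by side over the 7 OCI-Ly3 groups, hairpin 2 had the highest median in 33 of 38 members, and DMSO at 24 h had the lowest in 21. In 22 of 38 members every OCI-Ly3 hairpin library was above every OCI-Ly3 library of the compound experiment, where 16.5% of all 12303 rows showed this. The members were chosen for high values in these hairpin libraries, so nothing is read from the 33, the 21 or the 22. The 33 and the 21 were not set beside all rows. In 9 of 38 the 8 h DMSO median was at or above the hairpin 1 median. Infection, culture and sequencing cannot be told apart from the experiment in such comparisons, and no test was made.

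Rows that reached 0.8 with both hairpins in OCI-Ly3 but were kept out because they were at 0.3 or more with at least 1 hairpin in TMD8 had a larger median with compound 3. Of these 43 rows, 17 were called higher after 24 h in OCI-Ly3, with a median of 1.07, beside 6 of 36 members and a median of 0.40 for those. Of all rows tested, 0.651% were called higher there. In TMD8 at 24 h their median was 0.15 with 0 called, beside -0.00056 and 0 called for the members. The 23 rows that were lower with both hairpins in OCI-Ly3 alone, by the same limits, had a median of -0.50 after 24 h in OCI-Ly3. Limma called 0 of them, and 10 had an unadjusted p below 0.05, beside 8.14% of all rows. These sets differ in level and in their knockdown changes, and no test between them was made.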

How the data were processed

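RNA was sequenced from 42 libraries of human cell lines, prepared with a stranded mRNA kit per the labels' protocols. The authors deposited CPM values for 23250 numbered rows per library, without gene names. STAR and the genome build hg19 are named per the submitters' processing notes, and the read counter is not given in the sources used here. Deposited CPM were whole multiples of what 1 read is worth (tolerance 1e-06), so read numbers could be recovered.

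The members, comparison sets and tests were chosen with earlier results of these data known. Compound comparisons were fitted to log2(CPM + 1), computed here from the deposited CPM, with limma 3.58.1 in R 4.3.3 (8 group means over 24 libraries, trend, two-sided, Benjamini-Hochberg over 12589 rows with at least 1 CPM in at least 3 libraries). The script was tested on simulated data. Alternatives were edgeR 4.0.16 and DESeq2 1.42.0 on recovered reads, pseudocount 0.25, no filter, rescaling by size factors, a replicate block, a fit of 1 line, and leaving out libraries. Row numbers are printed for the 2 members with the largest called fold change at 24 h in OCI-Ly3 and the 2 with the lowest; other members are described by their place or because they were called.

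Same-numbered libraries were taken as paired where the correlation of their deviations from the group means was over 0.1 in every pair. It was 0.378 to 0.599 for compound 3 and DMSO in OCI-Ly3 at 24 h, 0.715 to 0.808 at 8 h, 0.318 to 0.699 for DMSO at both times in OCI-Ly3, and 0.750 to 0.921 in TMD8 at 8 h. In TMD8 at 24 h it was -0.179 to 0.786, so those numbers were not taken as pairs. The 24 h DMSO libraries of OCI-Ly3 and TMD8 also met this rule, at 0.125 to 0.444, although they are different cell lines. There, OCI-Ly3 replicates 1 and 3 correlated best with a TMD8 library of another number, whereas in the pairings within OCI-Ly3 the best match had the same number. The labels give no pairing, so the blocked counts rest on this rule alone. Each blocked fit covered all 24 libraries, so the spread behind its calls also includes TMD8 numbers that were not taken as pairs.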

Additional observations from a re-analysis of the deposited data

Results flagged for a closer look

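In 4 of the 38 members, every hairpin library was above every non-targeting library in OCI-Ly3 and below every non-targeting library in TMD8, so that all samples of the lines moved opposite ways; 0.862% of all 12303 rows did so. Their changes in OCI-Ly3 ran from 0.81 to 1.06 with hairpin 1 and from 1.20 to 1.60 with hairpin 2. In TMD8 they ran from -0.77 to -0.08 with hairpin 1 and from -0.64 to -0.31 with hairpin 2. The difference was not tested, and the selection used these libraries and set no lower bound in TMD8. In OCI-Ly3 the selection left 34 of the 38 members with all hairpin libraries above the controls, so 0.862% is not a fitting background. In TMD8 all hairpin libraries lay below the controls in 5 of the 38 members, beside 8.04% of all rows. Nothing is read from the count of 4.

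One of the 4 is row 20904, which in TMD8 had 5.34, 4.50 and 5.21 CPM with hairpin 1 and 6.96, 6.96 and 8.63 CPM with hairpin 2, against 9.43, 11.4 and 9.21 CPM with the non-targeting hairpin. Another, in OCI-Ly3, had 84.2, 79.3 and 90.4 CPM with hairpin 1 and 108, 92.9 and 86.8 CPM with hairpin 2, against 2.86, 39.7 and 46.0 CPM with the non-targeting hairpin; control replicate 1 was far below the other controls. A further one had 20.4, 23.0 and 27.0 CPM with hairpin 1 and 27.3, 32.5 and 43.1 CPM with hairpin 2 in OCI-Ly3, against 7.81, 12.6 and 12.7 CPM with the non-targeting hairpin. In TMD8 the same member had 3.97, 2.77 and 2.97 CPM with hairpin 1 and 3.42, 3.22 and 2.36 CPM with hairpin 2, against 4.24, 4.62 and 5.16 CPM with the non-targeting hairpin. The last is the member with the highest OCI-Ly3 control level.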

How the results depend on the processing

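The number of members, 38, was 127 with group means, 74 with pseudocount 0.25, 17 with a limit of 1 in OCI-Ly3, and 28 to 275 with 1 library left out. Members called higher with compound 3 at 24 h in OCI-Ly3, 6, were 2 with edgeR, 1 in the fit of OCI-Ly3 alone, 19 with the replicate block, and 0 to 5 with 1 library left out. With the replicate block the difference between times was called in 5 members (0 to 1 with 1 library left out), beside 1.19% of all rows. With the block the difference between lines was called in 9, beside 178 of 12589 rows. The TMD8 numbers at 24 h were not taken as pairs. Members called lower with time in DMSO in OCI-Ly3, 5, were 3 with pseudocount 0.25, with no filter and with edgeR, 10 with DESeq2, 21 with the replicate block, 0 in the fit of that line alone, 0 to 12 with 1 library left out, and 8 without both TMD8 8 h libraries numbered 1, an alternative chosen after seeing the data. In TMD8, members called higher with time, 1, were 2 with pseudocount 0.25, edgeR, DESeq2 and the replicate block, 0 with no filter, in the fit of that line alone and without both TMD8 8 h libraries numbered 1, and 0 to 2 with 1 library left out. Members called lower there, 5, were 3 with no filter, 8 with the replicate block, 2 in the fit of that line alone, 1 without both TMD8 8 h libraries numbered 1, and 1 to 4 with 1 library left out. DMSO numbers in TMD8 (0.0862 to 0.390 between times) were not taken as pairs. The number of calls over all rows also differed between settings, and the cause of these shifts was not tested. Counts for compound 3 at 8 h in OCI-Ly3 and at both times in TMD8 were 0 in all 14 alternatives each, the line counts were within 1.5 times in all 19, and the block moved no other count of calls by over 1.5 times. Low counts limit 10 members below 1 CPM in the OCI-Ly3 controls, where 1 CPM is 22.6 to 24.3 reads.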
